A study of Homo sapiens with 16 samples.

Results

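Expression of 36 genes of the hypoxia response and of glycolysis was followed across 16 RNA-seq libraries of Hs578 and TT642 cells. The genes were taken from a list of hypoxia-inducible factor (HIF) targets, glycolysis enzymes and their regulators, chosen by function, and they are 36 of the 20114 genes counted. All 36 were among the 14035 genes that passed the filter on low counts. In each cell line, 1 group was cells with a doxycycline-inducible shRNA against PRRX1 given 3 µg/ml doxycycline (3 libraries, numbered 1, 2 and 3). The other groups were the same hairpin lines without doxycycline (3 libraries), parental cells with doxycycline (1 library) and parental cells without it (1 library). Hs578 is a breast cancer line. TT642 has a rhabdoid tumour source in the sample labels, whereas the series describes both as triple-negative breast cancer. PRRX1 is a homeobox transcription factor of mesenchymal cells.

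The labels name no non-targeting hairpin, so the parental cells are the only reference for doxycycline itself. Whether a hairpin line is 1 clone, and whether libraries came from separate cultures, is not stated in the labels, nor are the duration of treatment and the oxygen tension. The 3 libraries of a group carry different hairpins, and the tests gauge differences by the spread among them, which may in part be technical. In bulk RNA, fewer cells expressing a gene and less of its RNA per cell cannot be told apart.

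When oxygen is short, prolyl hydroxylases of the EGLN family no longer mark HIF alpha subunits for degradation, and HIF binds a short core motif near its target genes. These include glucose transporters, most enzymes of glycolysis, kinases that hold pyruvate back from mitochondria, lactate dehydrogenase A, a lactate exporter and carbonic anhydrases that buffer the acid made. HIF alpha is controlled largely through protein stability, which RNA-seq does not measure. Several glycolytic steps can be run by alternative enzymes from different genes, and tissues and tumours differ in which they use.

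Promoters of 5 members called higher with doxycycline in Hs578 are printed, and no promoter of a member that fell is printed. CA9 and ANKRD37 had the highest fold changes with doxycycline in Hs578, BNIP3 and LDHA also rose there, and PGAM1 rose without a core motif in the window. Each sequence is the 250 bases before an annotated gene start, from RefSeq on GRCh38.p14, which is not the hg19 build named in the submitters' processing notes. CA9 lies at chr9:35673678-35673927 on the plus strand, ANKRD37 at chr4:185396591-185396840 on the plus strand, BNIP3 at chr10:131981924-131982173 on the minus strand, LDHA (its first listed start) at chr11:18394313-18394562 on the plus strand and PGAM1 at chr10:97427568-97427817 on the plus strand. Capitals mark the HIF core letters ACGTG or GCGTG on either strand. CACGTG holds ACGTG on both strands and counts as 2 overlapping matches.
CA9: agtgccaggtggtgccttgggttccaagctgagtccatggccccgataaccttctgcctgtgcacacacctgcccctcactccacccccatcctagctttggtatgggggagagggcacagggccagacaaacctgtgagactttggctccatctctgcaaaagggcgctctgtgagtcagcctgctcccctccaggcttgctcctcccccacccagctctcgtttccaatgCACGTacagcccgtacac
ANKRD37: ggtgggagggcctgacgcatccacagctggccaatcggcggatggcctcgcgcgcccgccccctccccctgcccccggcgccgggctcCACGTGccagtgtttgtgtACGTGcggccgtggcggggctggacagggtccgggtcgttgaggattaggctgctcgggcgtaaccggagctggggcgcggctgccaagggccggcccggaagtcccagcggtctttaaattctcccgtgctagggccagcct
BNIP3: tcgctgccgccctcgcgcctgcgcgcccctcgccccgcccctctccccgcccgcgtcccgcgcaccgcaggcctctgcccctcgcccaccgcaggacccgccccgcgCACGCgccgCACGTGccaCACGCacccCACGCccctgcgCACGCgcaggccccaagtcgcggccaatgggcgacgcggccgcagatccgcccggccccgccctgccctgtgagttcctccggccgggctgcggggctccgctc
LDHA: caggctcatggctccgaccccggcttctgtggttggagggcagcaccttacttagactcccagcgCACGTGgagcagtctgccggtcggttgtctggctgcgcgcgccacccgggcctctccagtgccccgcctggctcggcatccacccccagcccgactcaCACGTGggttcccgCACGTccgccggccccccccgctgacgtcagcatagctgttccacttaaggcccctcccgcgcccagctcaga
PGAM1: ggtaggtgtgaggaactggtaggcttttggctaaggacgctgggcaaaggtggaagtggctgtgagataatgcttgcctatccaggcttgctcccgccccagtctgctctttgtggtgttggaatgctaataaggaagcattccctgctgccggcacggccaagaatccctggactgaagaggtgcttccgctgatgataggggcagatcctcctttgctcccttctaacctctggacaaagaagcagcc
CA9 had 1 match, ANKRD37 had 3, BNIP3 had 6, LDHA had 5 and PGAM1 had 0. Matches also lay in windows of HIF1A, EPAS1 and HK2, which fell with doxycycline in Hs578. The RefSeq table held promoters of 31 members, and 27 of these (87.1%) had a match in the window of at least 1 annotated start, against 47.4% of all 27305 genes. By window, 35 of 59 (59.3%) had a match, against 43.2% of 35116 windows. The members were listed as HIF targets and glycolysis genes, so these shares are no independent result about them. A gene with more annotated starts also has more windows in which a match can fall. A match is a description of letters, not a measured binding site.

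Total counts ran from 13461527 to 24672906 per library. PRRX1 had 37.1, 72.8 and 51.0 CPM with doxycycline, against 291, 227 and 262 CPM without in the Hs578 hairpin lines (CPM, counts scaled by library size with TMM factors), and 265, 184 and 513 CPM with doxycycline, against 1213, 1409 and 1301 CPM without in the TT642 hairpin lines. The groups did not overlap in either line, and PRRX1 was called lower in Hs578 (log2 fold change -2.28, SE 0.37, adjusted p = 0.00224) but not in TT642 (-2.03, SE 0.36, adjusted p = 0.166), by edgeR's quasi-likelihood test with Benjamini-Hochberg adjustment over all genes, used throughout at 0.05. Parental cells had 298 CPM with doxycycline and 289.8 CPM without in Hs578 and 1533 CPM with doxycycline and 1484 CPM without in TT642. The epithelial markers EPCAM, CDH1 and KRT19 did not exceed 0.495 CPM. Of the hormone receptors, ESR1 had at most 0.607 CPM in Hs578 and 0.0603 CPM in TT642. PGR had at most 61 reads in a library of Hs578 and 13 in one of TT642. ERBB2, which encodes HER2, had 69.9 to 78.8 CPM in Hs578 and 110 to 173 CPM in TT642, so its RNA was present in both lines. Whether these levels bear on the triple-negative label was not tested. The mesenchymal VIM had at least 4081 CPM in every library, and FN1 had at least 10219 CPM in Hs578 but at most 3.96 CPM in TT642. SMARCB1, whose loss marks most rhabdoid tumours, had 87.7 to 125 CPM in Hs578 and 28.8 to 41.6 CPM in TT642. The blood marker PTPRC reached at most 0.976 CPM and the endothelial VWF 0.183 CPM. CD68, a macrophage marker that other cells also express, had 43.2 to 105 CPM in Hs578 and 12.2 to 17.2 CPM in TT642.

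The 2 cell lines differed in nearly all of these genes, and also in most of all genes tested. Among hairpin lines without doxycycline, 24 of 36 members were called higher in Hs578 than in TT642, where 41.0% of all genes tested were, and 9 were called lower, where 39.7% of all genes were. The median log2 fold change was 0.62 over members and 0.01 over all genes. On log2(FPKM + 1), the authors' length- and depth-scaled values, it was 0.34 over members and -0.11 over all genes. There 18 members were called higher and 9 lower, beside 4872 higher and 6006 lower over all genes. Tissue of origin, culture and every other trait that separates the lines cannot be told apart here.

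The HIF alpha subunits differed in opposite directions. HIF1A, the subunit of most cells, had 696, 527 and 601 CPM in Hs578, against 99.2, 95.5 and 85.8 CPM in TT642 (log2 fold change 2.70, SE 0.13, adjusted p = 5.26e-11). EPAS1, which encodes HIF-2 alpha, had 169, 193 and 159 CPM in Hs578, against 359, 402 and 312 CPM in TT642 (-1.04, SE 0.11, adjusted p = 5.42e-07). Every Hs578 library lay above every TT642 library for HIF1A and below it for EPAS1. Per transcript length, HIF1A made up 84.8%, 78.5% and 83.7% in Hs578, against 27.1%, 24.4% and 27.1% in TT642, of the summed FPKM of this pair. HIF1A was therefore the leading HIF alpha transcript in Hs578, and EPAS1 in TT642.

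Several hypoxia markers of Hs578 were nearly missing in TT642. CA9, a membrane carbonic anhydrase, had 39, 18 and 36 reads in Hs578, against 0, 0 and 0 in TT642, and was at least 34.2-fold higher in Hs578 over a floor of 3 counts for the TT642 group (adjusted p = 0.00111). Of all 8 TT642 libraries, only the parental one with doxycycline held a CA9 read, and it held 1. CA12, its relative, had 268, 246 and 262 CPM in Hs578, against 4.31, 2.67 and 2.67 CPM in TT642 (log2 fold change 6.33, SE 0.31, adjusted p = 4.2e-09). NDRG1, a stress-responsive gene that HIF induces, had 284, 247 and 273 CPM in Hs578, against 3.40, 4.33 and 2.84 CPM in TT642 (6.24, SE 0.30, adjusted p = 3.18e-09). The libraries of the 2 lines did not overlap for any of these genes.

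Among oxygen sensors, EGLN3, which HIF itself induces, had 5.00, 3.05 and 4.55 CPM in Hs578, against 0.680, 0.681 and 0.612 CPM in TT642 (log2 fold change 2.66, SE 0.37, adjusted p = 1.01e-05). EGLN1, the main sensor of most cells, had 67.1, 55.3 and 60.6 CPM in Hs578, against 77.2, 80.2 and 81.6 CPM in TT642 (-0.38, SE 0.11, adjusted p = 0.00497). Neither overlapped between lines, and the directions were opposite. The EGLN1 call was lost without hairpin 2 (adjusted p = 0.0571). In the tests here and below, leaving out a hairpin removed its libraries with and without doxycycline in both lines. This also lowered the residual degrees of freedom. In a call lost this way, the hairpin and the smaller number of libraries cannot be told apart. The mitophagy receptors BNIP3L (1.63, SE 0.13) and BNIP3 (0.78, SE 0.13) and the ankyrin-repeat gene ANKRD37 (0.99, SE 0.24) were higher in Hs578 by smaller log2 fold changes. BNIP3 made up 26.0%, 25.6% and 27.7% in Hs578, against 35.6%, 38.9% and 38.8% in TT642, of the FPKM of the 2 receptors, so BNIP3L led in both lines. The angiogenic factor VEGFA had 744, 809.8 and 714 CPM in Hs578, against 623, 595 and 561 CPM in TT642 (0.35, SE 0.15, adjusted p = 0.0441), a call lost under 12 of 17 alternative settings and at -0.26 in the libraries with doxycycline.

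**Figure D1:**
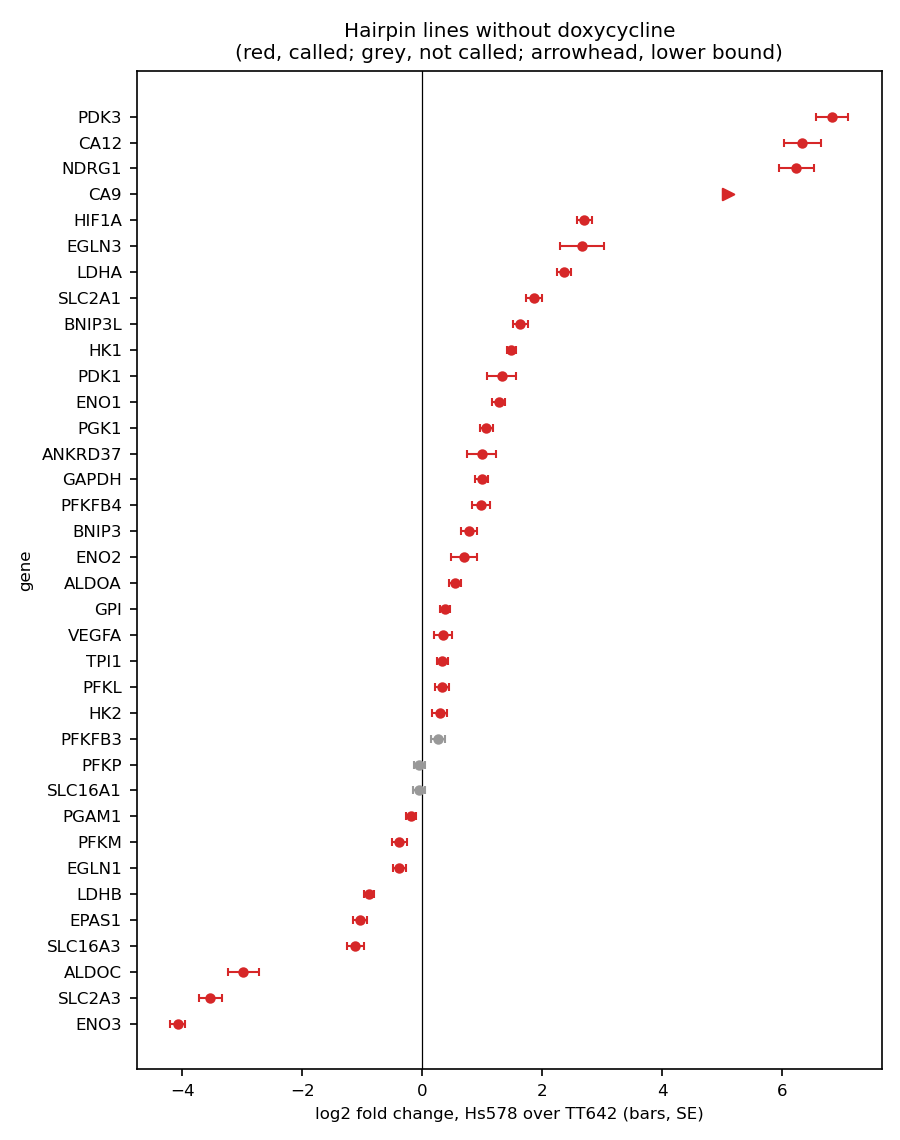
Log2 fold change of each member, Hs578 over TT642, in hairpin lines without doxycycline (n = 3 per line), with bars for SE and colour for the call. PDK3, CA12 and NDRG1 lie above 6, ENO3 lies at -4.08, and the CA9 arrowhead marks a lower bound of at least 34.2-fold.

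The 2 glucose transporter transcripts differed in opposite directions between the lines. SLC2A1, encoding GLUT1, had 79.9, 98.2 and 82.1 CPM in Hs578, against 24.8, 23.5 and 23.3 CPM in TT642 (log2 fold change 1.86, SE 0.13, adjusted p = 5.31e-09). SLC2A3, encoding GLUT3, had 7.26, 8.23 and 7.31 CPM in Hs578, against 98.7, 97.9 and 67.2 CPM in TT642 (-3.53, SE 0.20, adjusted p = 1.44e-09). The lines did not overlap for either gene. In FPKM, SLC2A1 made up 92.4%, 93.0% and 90.7% in Hs578, against 20.4%, 19.7% and 26.4% in TT642, of the pair. SLC2A3 has a close paralogue, SLC2A14, and the treatment of reads shared between them is not stated.

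Of the 15 glycolytic enzymes, 10 were higher in Hs578, 4 were lower and PFKP was not called. HK1, a hexokinase of the first step, had 218, 225 and 217 CPM in Hs578, against 79.5, 77.6 and 78.6 CPM in TT642 (log2 fold change 1.48, SE 0.07, adjusted p = 7.47e-11). HK2, the inducible hexokinase, had 78.9, 87.7 and 77.6 CPM in Hs578, against 66.2, 67.9 and 65.3 CPM in TT642 (0.29, SE 0.12, adjusted p = 0.0415), a call lost under 12 of 17 alternatives. Both genes separated the lines, HK1 by far more. HK1 made up 80.9%, 79.2% and 80.2% in Hs578, against 65.0%, 62.7% and 64.4% in TT642, of their FPKM.

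ENO1, PGK1 and GAPDH of the energy-yielding steps were higher in Hs578 by log2 fold changes of 1.28 (SE 0.11), 1.07 (SE 0.10) and 0.99 (SE 0.11), and ENO2 and ALDOA by 0.70 (SE 0.21) and 0.55 (SE 0.10). GPI (0.38, SE 0.09), PFKL (0.33, SE 0.11) and TPI1 (0.33, SE 0.09) were called on counts but not in FPKM, and ENO2 was not called in FPKM either. PFKP, the platelet-type phosphofructokinase, had 268, 271 and 283 CPM in Hs578, against 308, 248 and 297 CPM in TT642, with overlap. It made up 73.5%, 75.8% and 73.8% in Hs578, against 74.4%, 73.4% and 71.6% in TT642, of phosphofructokinase FPKM, a near-equal share. The muscle type PFKM was lower in Hs578 (-0.38, SE 0.12, adjusted p = 0.00994), a call lost without hairpin 1 (adjusted p = 0.0896). PGAM1 was lower by 0.19 (SE 0.08, adjusted p = 0.0405), a call lost under 15 of 17 alternatives and at 0.13 on log2(FPKM + 1). Of the bifunctional enzymes that set the activator of phosphofructokinase, PFKFB4 was higher in Hs578 (0.97, SE 0.15, adjusted p = 2.99e-05) and PFKFB3 was not called (0.26, SE 0.12, adjusted p = 0.0594).

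ENO3, the muscle enolase, had 4.65, 5.18 and 5.47 CPM in Hs578, against 90.4, 81.8 and 86.7 CPM in TT642 (log2 fold change -4.08, SE 0.12, adjusted p = 3.38e-13). It had the most negative fold change of the 36 members, without overlap. It made up 0.194%, 0.240% and 0.323% in Hs578, against 7.16%, 7.69% and 7.47% in TT642, of enolase FPKM, and ENO1 led in both lines. Its exons overlap those of PFN1 on the opposite strand, and PFN1 was higher in Hs578 (0.40, SE 0.11), in the other direction. The labels do not say whether counting used strand. ALDOC, the brain-type aldolase, had 0.407, 0.427 and 0.403 CPM in Hs578, against 3.74, 3.11 and 3.06 CPM in TT642 (-2.98, SE 0.26, adjusted p = 5.1e-08), and ALDOA averaged 99.95% of aldolase FPKM in Hs578 and 99.61% in TT642.

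Lactate and pyruvate genes separated the lines too. LDHA, whose subunit favours lactate, had 3223, 2931 and 3206 CPM in Hs578, against 645, 599 and 582 CPM in TT642 (log2 fold change 2.36, SE 0.12, adjusted p = 1.17e-10). LDHB, the heart-type subunit, had 319, 352 and 354 CPM in Hs578, against 641, 653 and 599 CPM in TT642 (-0.88, SE 0.08, adjusted p = 1.19e-07). Hs578 lay above TT642 in every library for LDHA and below it for LDHB. LDHA made up 92.0%, 90.6% and 90.9% in Hs578, against 55.7%, 51.4% and 54.2% in TT642, of their FPKM.

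The pyruvate dehydrogenase kinase PDK3 had 413, 318 and 445 reads in Hs578, against 3, 5 and 3 in TT642, or 24.0, 19.4 and 25.6 CPM in Hs578, against 0.170, 0.243 and 0.167 CPM in TT642 (log2 fold change 6.83, SE 0.27, adjusted p = 7.42e-12). The TT642 level rests on very few reads. PDK1, another of these kinases, had 50.9, 33.9 and 46.0 CPM in Hs578, against 14.6, 24.4 and 13.1 CPM in TT642 (1.32, SE 0.24, adjusted p = 0.000241). Both kinases were higher in Hs578 without overlap, but PDK1 made up 50.8%, 52.7% and 50.8% in Hs578, against 97.9%, 97.7% and 97.3% in TT642, of their FPKM.

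SLC16A3, the lactate exporter MCT4, had 33.5, 39.0 and 36.5 CPM in Hs578, against 77.9, 81.7 and 77.2 CPM in TT642 (log2 fold change -1.12, SE 0.14, adjusted p = 4.17e-06). It was lower in every Hs578 library, but in libraries with doxycycline the fold change was -0.04 (adjusted p = 0.811). SLC16A1, encoding MCT1, was not called (-0.06, SE 0.10) and made up 67.5%, 65.6% and 70.1% in Hs578, against 57.0%, 53.2% and 50.3% in TT642, of the FPKM of the 2 transporters.

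**Figure D2:**
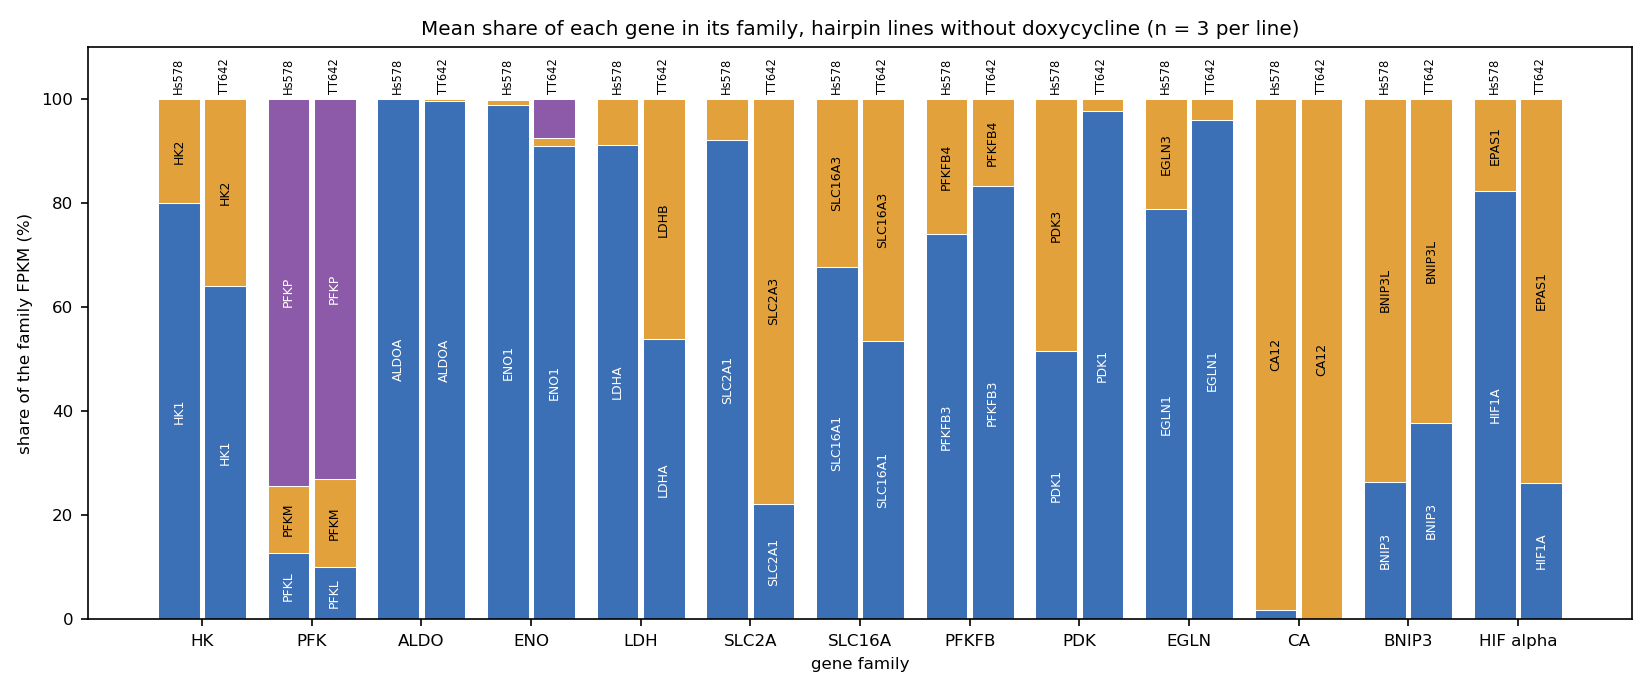
Mean share of each member in the summed FPKM of its gene family (percent) in hairpin lines without doxycycline, Hs578 left of TT642 (n = 3 libraries per line). The leading gene differs between lines in 2 of 13 families, SLC2A and HIF alpha, and LDHB, PDK1 and ENO3 take larger shares in TT642.

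Across 13 families, in hairpin lines without doxycycline, the gene with the largest mean FPKM share was the same in both lines in all but 2, and these 2 stayed so without each hairpin in turn. In CPM, which is not scaled by length, the lactate dehydrogenases joined them, making 3. The pyruvate dehydrogenase kinases of Hs578 were close to a tie. PDK3 made up 57.9%, 54.3% and 61.3% of their FPKM in Hs578 hairpin lines with doxycycline, against 49.2%, 47.3% and 49.2% without, and 53.8% with it against 51.4% without it in parental cells. PDK3 thus led in Hs578 in all of these groups but the hairpin lines without doxycycline, whereas PDK1 led in every TT642 library. The most abundant members by mean FPKM were LDHA at 2489 ± 138, GAPDH at 2099 ± 145 and ENO1 at 1933 ± 83.2 in Hs578 (SD, n = 3), of which GAPDH and ENO1 overlapped in range. In TT642 they were GAPDH at 1204 ± 65.6, ENO1 at 882 ± 67.1, ALDOA at 600.0 ± 26.7 and LDHA at 586 ± 48.2 (SD, n = 3), of which ALDOA and LDHA overlapped. LDHA thus ranked 1 in Hs578 and 4 in TT642.

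With doxycycline, 10 of 15 glycolytic enzymes, LDHA and the lactate exporter SLC16A3 rose in the Hs578 hairpin lines, and HK2, HIF1A and EPAS1 were among the members that fell. Of 36 members, 17 rose, where 15.2% of all genes did, and 5 fell, where 14.1% of all genes did. The median log2 fold change was 0.36 over members and 0.00 over all genes. On log2(FPKM + 1) it was 0.13 over members and -0.08 over all genes. There 13 members were called higher and 6 lower, beside 1352 higher and 3112 lower over all genes. Thus 30.3% of all calls were in the higher direction, against 51.9% on counts. In 19 members all 3 libraries with doxycycline lay above all 3 without (22.1% of all genes), and in 5 they lay below (21.9% of all genes). Members took 1.90%, 2.12% and 1.65% of counts with doxycycline, against 1.51%, 1.53% and 1.58% without, and 1.63% against 1.46% in parental cells.

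HIF1A had 381, 395 and 344 CPM with doxycycline, against 696, 527 and 601 CPM without, and fell by 0.70 on the log2 scale (SE 0.12, adjusted p = 0.00132). EPAS1 had 113, 130.0 and 103 CPM with doxycycline, against 169, 193 and 159 CPM without, and fell by 0.59 (SE 0.11, adjusted p = 0.00211). Neither overlapped between the states, and both calls held under all 17 alternatives. HIF1A made up 81.8%, 80.2% and 81.7% with doxycycline, against 84.8%, 78.5% and 83.7% without, of the FPKM of the pair, so their proportion overlapped between the states.

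CA9 had 9.52, 26.7 and 10.1 CPM with doxycycline, against 2.27, 1.10 and 2.07 CPM without (log2 fold change 3.07, SE 0.50, adjusted p = 0.00464). It was higher in every library with doxycycline, and highest for hairpin 2. CA12 had 126, 261 and 203 CPM with doxycycline, against 268, 246 and 262 CPM without, with overlap, and was not called (-0.40, SE 0.23, adjusted p = 0.218). CA9 accordingly made up 17.8%, 24.1% and 14.3% with doxycycline, against 2.17%, 1.04% and 1.92% without, of their FPKM. The CA9 call was lost without hairpin 3 (adjusted p = 0.0563). CA9 shares exon sequence with ARHGEF39 on the opposite strand.

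ANKRD37 had 7.07, 9.73 and 9.05 CPM with doxycycline, against 3.66, 3.54 and 3.28 CPM without (log2 fold change 1.30, SE 0.22, adjusted p = 0.00137). BNIP3 had 89.6, 104 and 66.3 CPM with doxycycline, against 55.3, 46.5 and 53.3 CPM without (0.74, SE 0.13, adjusted p = 0.00156). Both were higher in every library with doxycycline, and BNIP3 was called under all 17 alternatives, whereas ANKRD37 was lost without hairpin 3 (adjusted p = 0.051). BNIP3 made up 37.3%, 37.0% and 34.5% with doxycycline, against 26.0%, 25.6% and 27.7% without, of the FPKM of BNIP3 and BNIP3L. ANKRD37 overlaps UFSP2 on the opposite strand, and 39 pseudogenes are named after BNIP3, so reads may be shared.

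VEGFA went the other way, with 430.4, 543 and 344 CPM with doxycycline, against 744, 809.8 and 714 CPM without, and fell by 0.78 (SE 0.15, adjusted p = 0.00256). It was lower in every library with doxycycline, and its call missed the threshold without hairpin 1 (adjusted p = 0.0501). NDRG1 had 249, 389.5 and 179 CPM with doxycycline, against 284, 247 and 273 CPM without, and EGLN3 had 6.19, 8.58 and 3.43 CPM with doxycycline, against 5.00, 3.05 and 4.55 CPM without. In both, hairpin 2 was highest with doxycycline and hairpin 3 was below its own library without it, and neither was called, nor were EGLN1 (-0.08, SE 0.11) and BNIP3L (0.31, SE 0.12, adjusted p = 0.0704).

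SLC2A3 had 3.54, 4.29 and 2.84 CPM with doxycycline, against 7.26, 8.23 and 7.31 CPM without, and fell by 1.12 (SE 0.24, adjusted p = 0.00517) under every alternative. SLC2A1 had 120.0, 118 and 88.1 CPM with doxycycline, against 79.9, 98.2 and 82.1 CPM without, and was not called (0.32, SE 0.13, adjusted p = 0.066). The 2 transporters thus had fold changes of opposite sign, and SLC2A1 made up 97.4%, 96.9% and 97.2% with doxycycline, against 92.4%, 93.0% and 90.7% without, of their FPKM.

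Of the 15 glycolytic enzymes, 10 rose and HK2 fell. ALDOA, which splits fructose bisphosphate, had 1386, 1768 and 1505 CPM with doxycycline, against 887, 931 and 936 CPM without (log2 fold change 0.76, SE 0.10, adjusted p = 0.000351). TPI1, which interconverts the products of that split, had 665, 773 and 600.4 CPM with doxycycline, against 403, 414 and 418 CPM without (0.72, SE 0.09, adjusted p = 0.00032). GAPDH, which acts next, had 4086, 5228 and 4440.1 CPM with doxycycline, against 2807, 3184 and 3062 CPM without (0.60, SE 0.11, adjusted p = 0.00158). None of the 3 overlapped between states, and all 3 were called under all 17 alternatives. GAPDH has 62 named pseudogenes, the most of any member.

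PGAM1, a mutase of the lower pathway, had 43.4, 45.6 and 40.5 CPM with doxycycline, against 32.3, 31.5 and 32.3 CPM without (log2 fold change 0.43, SE 0.08, adjusted p = 0.00195), without overlap. Like PFKL (0.56, SE 0.11), it was called under every alternative. The ratio of its counts to its FPKM corresponds to 344 bases, against 2568 bases of annotated exon, and 13 pseudogenes are named after it. ENO3 had 7.21, 7.26 and 8.81 CPM with doxycycline, against 4.65, 5.18 and 5.47 CPM without (0.61, SE 0.13, adjusted p = 0.00389). PFN1, which overlaps ENO3 on the opposite strand, was also called higher (0.39). It had 25662, 23758 and 35247 reads with doxycycline, where ENO3 had 106, 88 and 149. Whether reads were shared was not tested. ENO3 and PFKP (0.44, SE 0.09) missed the threshold without hairpin 3 (adjusted p = 0.0655 and 0.0636). PGK1 (0.40, SE 0.10), GPI (0.32, SE 0.08) and ENO2 (0.69, SE 0.21) lost their calls under 4, 8 and 6 of 17 alternatives.

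ENO1, the main enolase, had 3971, 4794 and 3699 CPM with doxycycline, against 3416, 3616 and 3668 CPM without, which did not overlap but missed the threshold (0.22, SE 0.11, adjusted p = 0.137). In FPKM its mean was lower with doxycycline, at 1862 against 1933 without, and parental cells had 3304 CPM with it and 3366 CPM without. HK2 had 53.8, 74.7 and 54.0 CPM with doxycycline, against 78.9, 87.7 and 77.6 CPM without (-0.42, SE 0.13, adjusted p = 0.0212), without overlap, and lost its call under 6 of 17 alternatives. HK1 (-0.01, SE 0.07), PFKM (-0.03, SE 0.12) and ALDOC (0.72, SE 0.31, adjusted p = 0.158) were not called, ALDOC at 9, 8 and 13 reads with doxycycline, against 7, 7 and 7 without. Of the regulators, PFKFB4 was called higher (0.46, SE 0.15, adjusted p = 0.0303), a call lost under 10 of 17 alternatives and at -0.05 on log2(FPKM + 1), and PFKFB3 was not called (-0.02, SE 0.12).

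SLC16A3 had 46.8, 75.6 and 69.0 CPM with doxycycline, against 33.5, 39.0 and 36.5 CPM without (log2 fold change 0.81, SE 0.14, adjusted p = 0.00157). LDHA had 4823, 5272 and 3973 CPM with doxycycline, against 3223, 2931 and 3206 CPM without (0.59, SE 0.11, adjusted p = 0.00248). Both were higher in every library with doxycycline. In FPKM the LDHA groups overlapped, at 3464, 3113 and 2021 with doxycycline, against 2614, 2340.1 and 2514 without, and its call was lost there (adjusted p up to 0.57). SLC16A3 was lost without hairpin 3 (adjusted p = 0.0577). It made up 35.5%, 53.0% and 53.6% with doxycycline, against 32.5%, 34.4% and 29.9% without, of the FPKM of the 2 transporters. PDK3 was called higher (0.52, SE 0.15, adjusted p = 0.0207), a call lost under 7 of 17 alternatives, while PDK1 (0.32, SE 0.23), LDHB (0.15, SE 0.08) and SLC16A1 (-0.08, SE 0.10) were not called.

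The library pairs differed in degree. Each hairpin has 1 pair, so hairpin and library differences cannot be told apart, and the parental pair had a median of 0.27. The median log2 ratio of members was 0.30 for hairpin 1, 0.53 for hairpin 2 and 0.16 for hairpin 3, with 27, 28 and 23 of 36 above 0. Without hairpin 3, 12 members were called, 8 higher and 4 lower. Of the 22 calls, 9 held under all 17 alternatives, namely ALDOA, TPI1, GAPDH, PFKL, PGAM1 and BNIP3, which rose, and HIF1A, EPAS1 and SLC2A3, which fell. The mitochondrial share of counts moved with doxycycline as well, at 3.18%, 4.27% and 5.44% with it, against 2.79%, 2.29% and 2.16% without, and 4.16% against 2.73% in parental cells, and its part in these results was not tested.

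**Figure D3:**
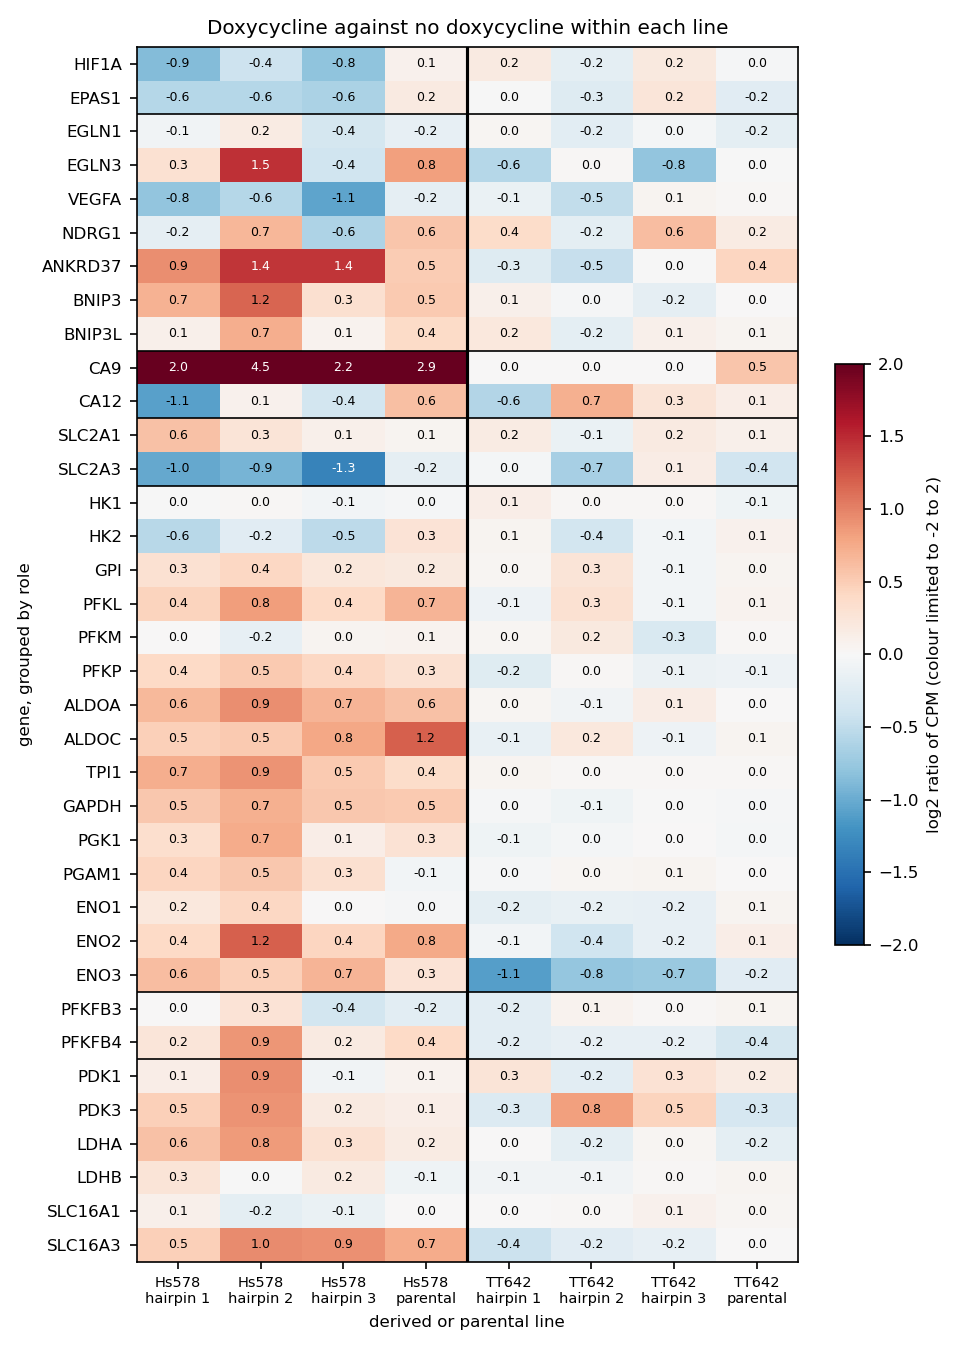
Log2 ratio of CPM with doxycycline over without for the 36 members (rows, by role) in each hairpin or parental line (columns), with colour limited to -2 to 2. CA9, ALDOA, TPI1 and GAPDH are positive in all 4 Hs578 columns, and HIF1A, EPAS1 and HK2 are negative in the 3 Hs578 hairpin columns and positive in the parental one.

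Parental Hs578 cells, which carry no hairpin, moved the same way for many members. In their single pair the median log2 ratio was 0.27, with 28 of 36 above 0. CA9 had 17.2 CPM with doxycycline and 2.24 CPM without, and SLC16A3 had 55.8 CPM with doxycycline and 33.2 CPM without. GAPDH had 3884 CPM with doxycycline and 2700.1 CPM without, ALDOA had 1269 CPM with doxycycline and 841 CPM without and TPI1 had 485 CPM with doxycycline and 375 CPM without. These 5 genes lay on the side seen in the hairpin lines. HIF1A, in contrast, had 751 CPM with doxycycline and 707 CPM without, EPAS1 had 217 CPM with doxycycline and 192 CPM without and HK2 had 96.5 CPM with doxycycline and 79.6 CPM without, all higher with doxycycline, whereas each was lower in all 3 hairpin lines.

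Net of the parental difference, edgeR called 0 of 36 members, where 0.406% of all genes were called in either direction. At an unadjusted p under 0.05 there were 4, a cut for which no share over all genes was taken. The net log2 difference was -0.79 for HIF1A (SE 0.24, adjusted p = 0.148), -0.77 for EPAS1 (SE 0.22, adjusted p = 0.138), -0.70 for HK2 (SE 0.25, adjusted p = 0.214) and 0.48 for PGAM1 (SE 0.16, adjusted p = 0.187). DESeq2 called HIF1A and EPAS1 lower (adjusted p = 0.0453 and 0.029). Over all genes DESeq2 called 162 higher and 134 lower in this comparison, against 41 and 16 by edgeR. Without hairpin 2, edgeR called HK2 lower (adjusted p = 0.0469). For CA9 the net difference was 0.13 with an SE of 0.96, for GAPDH 0.08 (SE 0.21), for ALDOA 0.17 (SE 0.20) and for LDHA 0.43 (SE 0.23). With 1 parental library per state, these errors assume that a parental library varies like the hairpin libraries.

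**Figure D4:**
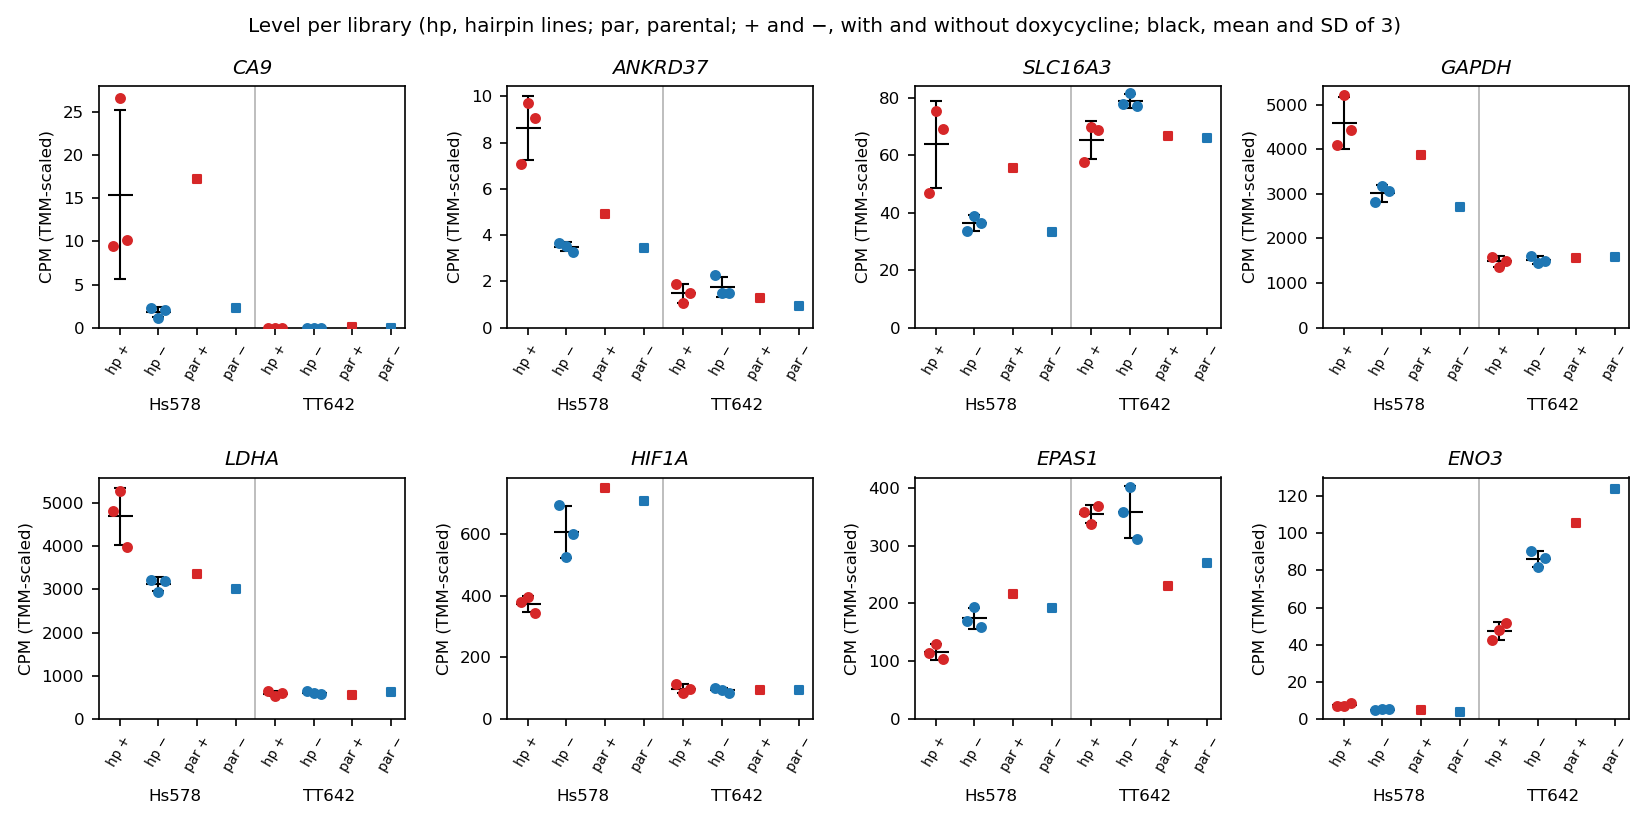
CPM of 8 members in each library, with circles for hairpin lines, squares for parental cells, red with and blue without doxycycline, and black marks for the mean and SD of 3 hairpin libraries. CA9, GAPDH and SLC16A3 are higher with doxycycline in hairpin and parental Hs578 cells, HIF1A and EPAS1 are lower in the Hs578 hairpin lines and not in parental Hs578 cells, and ENO3 is lower in the TT642 hairpin lines.

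In TT642 hairpin lines, doxycycline left few calls in any gene. PRRX1 itself was not called there (-2.03), though its groups did not overlap, so a missing call does not show a missing change. Of 36 members, 0 were called higher, where 0.0143% of all genes were, and 1 was called lower, where 0.0143% of all genes were. Besides this 1 no member had an unadjusted p under 0.05, and DESeq2 also called 0 members higher and 1 lower. Over all genes DESeq2 called 43 higher and 36 lower, against 2 and 2 by edgeR. The median log2 fold change was -0.02 over members and 0.00 over all genes. In 0 members all 3 libraries with doxycycline lay above all 3 without (8.54% of all genes), and in 2 they lay below (6.31% of all genes). GAPDH had 1592, 1361 and 1494 CPM with doxycycline, against 1614, 1439 and 1500.1 CPM without, and HIF1A had 112, 83.5 and 97.9 CPM with doxycycline, against 99.2, 95.5 and 85.8 CPM without, both with overlap.

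The exception was ENO3, with 42.3, 48.1 and 51.9 CPM with doxycycline, against 90.4, 81.8 and 86.7 CPM without, which fell by 0.86 on the log2 scale (SE 0.10, adjusted p = 0.00255). The groups did not overlap, and parental cells had 105 CPM with doxycycline and 124 CPM without. ENO3 made up 4.47%, 5.26% and 4.88% with doxycycline, against 7.16%, 7.69% and 7.47% without, of enolase FPKM. PFN1 on the opposite strand was not called (-0.08, SE 0.11). The ENO3 call was lost in FPKM and without hairpin 1, 2 or 3, with adjusted p up to 0.209. SLC16A3 had 57.7, 69.7 and 68.7 CPM with doxycycline, against 77.9, 81.7 and 77.2 CPM without, without overlap but not called (-0.27, SE 0.14, adjusted p = 0.671).

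The doxycycline fold change of Hs578 minus that of TT642 was tested as an interaction. It was called positive for 9 members, where 2.76% of all genes were, and negative for 2, where 2.48% of all genes were. On log2(FPKM + 1), 29.4% of all calls were positive, against 52.7% on counts. The positive log2 differences were those of ANKRD37 (1.56, SE 0.34), ENO3 (1.47, SE 0.16), SLC16A3 (1.08, SE 0.20), BNIP3 (0.78, SE 0.19), ALDOA (0.72, SE 0.14), TPI1 (0.69, SE 0.13), GAPDH (0.64, SE 0.15), LDHA (0.63, SE 0.16) and PFKP (0.56, SE 0.13), and the negative ones those of HIF1A (-0.77, SE 0.17) and EPAS1 (-0.58, SE 0.16). ENO3 had the smallest adjusted p (0.00166), and the other 10 lay between 0.0158 and 0.0476. PFN1, on the opposite strand of ENO3, was also positive (0.47) but not called. The count was 2 without hairpin 1, 1 without hairpin 2 and 0 without hairpin 3, where ENO3 had an adjusted p of 0.0637. Leaving out single libraries gave 1 to 13. It was 1 without hairpin 1 of Hs578 or hairpin 3 of TT642, both without doxycycline, and 2 without hairpin 1 of TT642 without doxycycline. It was 4 without hairpin 2 of Hs578 with doxycycline, hairpin 3 of Hs578 without it or hairpin 3 of TT642 with it, 5 without hairpin 1 of TT642 with doxycycline and 6 without hairpin 3 of Hs578 with it. CA9 could not be compared, since the TT642 hairpin libraries held 0 reads of it.

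**Figure D5:**
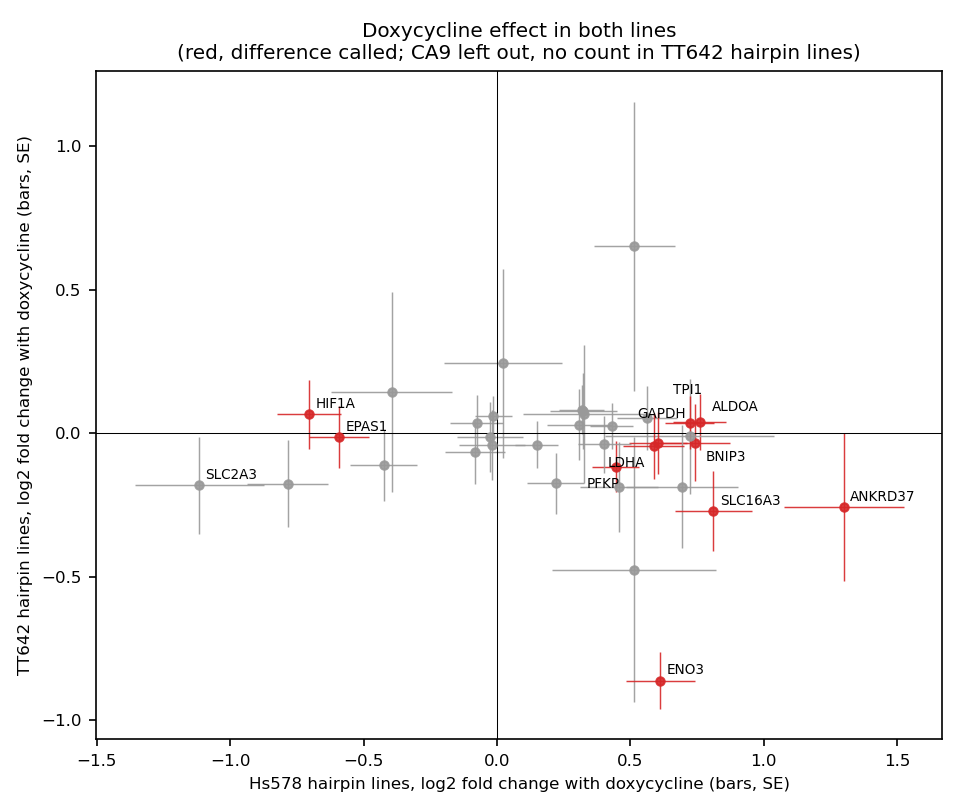
Log2 fold change with doxycycline over without in Hs578 (horizontal) and TT642 (vertical) hairpin lines for 35 members, CA9 left out; bars are SE and red marks the 11 members whose difference between lines was called. HIF1A and EPAS1 lie left of 0, ENO3 lies at 0.61 and -0.86, and the other red points lie right of 0.

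Hairpin lines were also set against parental cells over both doxycycline states. In Hs578, 2 members were higher in hairpin lines (2.14% of all genes), namely ENO3 (0.53, SE 0.14, adjusted p = 0.0489) and PGAM1 (0.33, SE 0.08, adjusted p = 0.0432), and 2 were lower (1.75% of all genes), namely HIF1A (-0.61, SE 0.12, adjusted p = 0.017) and EPAS1 (-0.53, SE 0.11, adjusted p = 0.0234). PFN1, on the opposite strand of ENO3, was also positive there (0.35) but not called. Without the libraries with doxycycline, or without hairpin 3, 0 members were called. The count was 2 without hairpin 1, 2 without the hairpin 2 library lacking doxycycline and 1 without the hairpin 3 library lacking it. In TT642, EPAS1 was higher (0.51, SE 0.11, adjusted p = 0.0139), where 4.18% of all genes were. ENO3 (-0.84, SE 0.09, adjusted p = 9.9e-05) and SLC2A3 (-0.65, SE 0.16, adjusted p = 0.0266) were lower there, where 4.83% of all genes were. In TT642 libraries without doxycycline none of the 3 was called, EPAS1 was lost without hairpin 1 (adjusted p = 0.0627) and SLC2A3 without hairpin 3 (adjusted p = 0.0729).

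Other genes of these pathways, in lists chosen by function, gave a mixed picture with doxycycline in Hs578 hairpin lines. Over all genes, 15.2% rose and 14.1% fell in this comparison. Net of the parental difference, edgeR called 0 genes of any of these lists, where 0.406% of all genes were called. Of 34 other HIF targets, 10 rose and 4 fell, with a median log2 fold change of 0.20. The highest were PPFIA4 (1.43, SE 0.38), the collagen prolyl hydroxylase P4HA1 (1.08, SE 0.12) and the lipase inhibitor ANGPTL4 (1.03, SE 0.33). The lowest were the transferrin receptor TFRC (-0.84, SE 0.11), NAMPT of NAD synthesis (-0.59, SE 0.11) and PPP1R3B (-0.45, SE 0.15), a subunit that directs a phosphatase to glycogen. P4HA1 had 274, 297 and 237 CPM with doxycycline, against 143, 108 and 129.6 CPM without, and TFRC had 331, 261 and 288 CPM with doxycycline, against 551, 527 and 502 CPM without. Neither overlapped between states, and in parental cells P4HA1 had 246 CPM with doxycycline and 127 CPM without and TFRC 222 CPM with doxycycline and 586 CPM without.

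Of 12 tested genes of HIF control, 3 rose and 4 fell, beside 15.2% and 14.1% of all genes. RBX1 (0.93, SE 0.14), TCEB2 (0.68, SE 0.13) and TCEB1 (0.38, SE 0.08), parts of the ubiquitin ligase that removes HIF alpha, rose, while its scaffold CUL2 (-0.43, SE 0.08) and the coregulators CITED2 (-0.82, SE 0.14) and CREBBP (-0.61, SE 0.12) fell. In the parental pair the log2 ratios were 0.10 for RBX1, 0.36 for TCEB2, -0.18 for TCEB1, -0.45 for CUL2, -0.60 for CITED2 and -0.89 for CREBBP. Of 13 tested other glycolysis genes, 3 rose, namely pyruvate kinase PKM (0.44, SE 0.12), PGM1 (0.32, SE 0.10) and BPGM (0.31, SE 0.10), and 2 fell, PFKFB2 (-0.68, SE 0.14) and PGM2 (-0.36, SE 0.11). Of 13 genes for pyruvate entry to mitochondria, 0 rose and 4 fell. They included the phosphatases that switch pyruvate dehydrogenase on, PDP1 (-1.07, SE 0.18) and PDP2 (-0.74, SE 0.17), and their regulatory subunit PDPR (-0.44, SE 0.09).

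The counts that follow stand beside the 15.2% of all genes that rose and the 14.1% that fell. Of 12 tested other carriers of glucose and lactate, BSG, which escorts lactate transporters to the membrane, rose (0.91, SE 0.12) and SLC16A7, encoding MCT2, fell (-1.05, SE 0.24). Of 7 pentose phosphate genes, TALDO1 (0.44, SE 0.08) and PGLS (0.43, SE 0.12) rose, and of 4 gluconeogenesis genes G6PC3 did (0.63, SE 0.10). In TT642, edgeR called 0 genes of these 7 lists, with 4 other HIF targets, 3 pyruvate entry genes, 2 carriers and 1 pentose phosphate gene at an unadjusted p under 0.05. The interaction was called for PDP1 (-1.58, SE 0.26, adjusted p = 0.0134), BSG (0.85, SE 0.16, adjusted p = 0.0174), RBX1 (0.86, SE 0.21, adjusted p = 0.0385) and 5 of the other HIF targets, including FAM162A (0.94, SE 0.20) and TFRC (-0.58, SE 0.15). Over all genes it was called positive for 2.76% and negative for 2.48%.

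Between the lines without doxycycline, 22 of the 34 other HIF targets were higher in Hs578 and 7 were lower, where 41.0% of all genes were higher and 39.7% lower. The highest were PLOD2 (9.39, SE 0.45) and LOX (6.23, SE 0.78), which modify collagen, and the vesicle GTPase RAB20 (4.82, SE 0.34). Their TT642 levels rest on few reads, at 4, 11 and 28 for PLOD2, 137, 19 and 26 for LOX and 1, 5 and 3 for RAB20. The lowest were ANGPTL4 (-3.18, SE 0.29), the mTOR inhibitor DDIT4 (-2.21, SE 0.17) and ZNF395 (-1.23, SE 0.26). Of the HIF control genes, 4 were higher and 6 lower. ARNT2, an alternative partner of HIF alpha, had 52.2, 47.7 and 49.3 CPM in Hs578, against 1.53, 1.60 and 2.73 CPM in TT642, whereas the usual partner ARNT had 45.3, 42.5 and 44.4 CPM in Hs578, against 102, 113 and 105 CPM in TT642 (4.67, SE 0.25 and -1.28, SE 0.08 on the log2 scale). The 2 partners thus separated the lines in opposite directions, and VHL, which recognises hydroxylated HIF alpha, was lower in Hs578 (-1.26, SE 0.09). Of the other carriers 10 of 12 were higher in Hs578 and 0 were lower, with 10 at an unadjusted p under 0.05, and of 13 pyruvate entry genes 9 were higher and 2 lower.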

How the data were processed

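RNA was extracted with RNeasy kits, and 500 ng went into stranded poly(A) TruSeq libraries, per the labels' protocols. The authors deposited raw read counts per gene and FPKM values for the same 16 libraries, with hg19 as the build in the submitters' processing notes. No source used here names the aligner, the annotation or the use of strand in counting. Samples were grouped by the labels, and the labels' hairpin numbers served as replicate numbers.

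Counts were scaled by TMM and tested with edgeR 4.0.16 (quasi-likelihood, R 4.3.3) in 1 fit of 8 groups with 8 residual degrees of freedom, after edgeR's filter on low counts, with p-values adjusted over 14035 genes. An SE is the fold change over the square root of its F statistic, and log2 ratios of single pairs use log CPM with a prior count of 2. DESeq2 1.42.0, limma 3.58.1 on log2(FPKM + 1) or log2(FPKM + 0.1), relative log expression scaling, no filter, a hairpin block and left-out libraries were alternatives. Libraries were left out singly, or all those of a hairpin number in both lines and both doxycycline states. The members, lists and tests were chosen with earlier results of these data known. Values per library are given by a rule (called members with the largest fold changes, up to 6 per direction, and leading family members); the other values per library, GAPDH and PGAM1 among them, were chosen after they were seen. Exon overlaps and pseudogene names come from GENCODE 29. The scripts were tested on simulated counts.

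The same hairpin number was taken to mark the same derived line with and without doxycycline, which would pair these libraries. The labels do not state this. The correlation of same-numbered deviations was 0.128, -0.028 and 0.001 in Hs578, and 0.44, 0.415 and 0.421 in TT642. Differently numbered libraries had -0.114 to 0.109 in Hs578 and -0.303 to -0.094 in TT642. No 2 libraries agreed within sampling noise (lowest chi-square per degree of freedom 5.35). Depth was 13461527 to 24672906 counts per library, and the floor of 3 counts covers counting error only.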

Additional observations from a re-analysis of the deposited data

Results flagged for a closer look

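The doxycycline fold change of Hs578 minus that of TT642 was called for 11 members by the interaction term of edgeR's quasi-likelihood fit, each with 3 libraries per state and line. It was positive for ANKRD37 (1.56, adjusted p = 0.0291), ENO3 (1.47, adjusted p = 0.00166), SLC16A3 (1.08, adjusted p = 0.0158), BNIP3 (0.78, adjusted p = 0.0376), ALDOA (0.72, adjusted p = 0.0177) and TPI1 (0.69, adjusted p = 0.0164). It was positive as well for GAPDH (0.64, adjusted p = 0.0369), LDHA (0.63, adjusted p = 0.0422) and PFKP (0.56, adjusted p = 0.0308). HIF1A (-0.77, adjusted p = 0.0298) and EPAS1 (-0.58, adjusted p = 0.0476) had negative values. All 11 lost their call without hairpin 3, and the highest adjusted p over the alternatives ran from 0.0637 for ENO3 to 0.644 for LDHA.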

How the results depend on the processing

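Of the single-gene values under alternative settings, 1165 kept their direction and side of the threshold, 257 lost a call, 3 gained one and 15 changed sign. Counts of called members ranged, when libraries were left out, from 12 to 23 for doxycycline in Hs578, 0 to 1 in TT642, 0 to 13 for the interaction, 28 to 31 between the lines, 0 to 1 net of parental cells, and 0 to 5 and 2 to 4 for hairpin lines against parental cells in Hs578 and TT642. The families with different leading genes in hairpin lines without doxycycline numbered 2, also without each hairpin, and 3 by CPM. In comparisons chosen after seeing the data they numbered 3 in hairpin lines with doxycycline, 4 in parental cells with it and 3 in parental cells without it.

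DESeq2 called 17 members in the interaction and 2 net of parental cells. Over all genes it called 680 positive and 745 negative in the interaction, against 387 and 348 by edgeR. Net of parental cells it called 162 higher and 134 lower, against 41 and 16. The member counts under the other settings in this section have no count over all genes beside them. On FPKM, with either pseudocount or no filter, the TT642 count was 0, and log2(FPKM + 1) without a filter gave 5 in the interaction. For Hs578 hairpin lines against parental cells the count was 2 without a filter, 2 on log2(FPKM + 1), 1 on log2(FPKM + 0.1), 2 on log2(FPKM + 1) without a filter, 7 with doxycycline and 0 without it; in TT642 it was 1 with and 0 without doxycycline.

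PFKFB4 in Hs578 with doxycycline turned to -0.0488 on log2(FPKM + 1), filtered or not, and -0.0595 on log2(FPKM + 0.1). Between the lines, PGAM1 turned to 0.13 on the FPKM scales and to 0.22 in libraries with doxycycline, where VEGFA was -0.26 and HK2 -0.0184. The net CA9 value, not called, turned to -0.10 on log2(FPKM + 1), filtered or not, and ranged from -0.78 to 0.58 when libraries were left out, below 0 without hairpin 2 or either of its libraries. The cause was not tested.

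With the hairpin as a replicate block, 23 members were called in Hs578, 1 in TT642, 16 in the interaction and 0 net of parental cells, where CA9 was -0.0184. No paired analysis was possible between lines or against parental cells because the hairpin numbers do not pair those libraries. Low counts limit CA9, ALDOC and, in TT642, PDK3, PLOD2 and RAB20.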
